A study of Sus scrofa with 15 samples.

Results

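The 10 genes described here encode 6 heat shock chaperones (*HSPA8*, *HSPA5*, *HSPH1*, *HSP90AA1*, *HSP90AB1* and *HSPD1*), 3 co-chaperones (*DNAJA1*, *DNAJB1* and *BAG3*) and the cold-inducible RNA-binding protein *CIRBP*. They were taken by gene symbol from a table of 29886 genes, in which all 10 had a row, and all 10 were among the 10939 genes that passed the filter on low counts. The list was selected on these same counts, in that the levels and liver-to-blood differences of chaperone genes were known when it was drawn up, so the differences given for it below describe its genes and are not independent evidence that chaperones as a group moved. RNA was sequenced from NK cells of 5 pigs, 6 months old and given no treatment or genetic change that the labels mention. Each pig gave 3 populations, which made 15 libraries: CD8αhigh NK cells from blood (cNK cells), CD8αhigh NK cells from liver and CD8αdim liver-resident NK (lrNK) cells. All were depleted of CD3+ and CD172a+ cells and sorted by FACS on CD8α. Blood was drawn before euthanasia, whereas liver cells were flushed out of the portal circulation with ice-cold PBS afterwards, so the organ and the handling cannot be told apart in any comparison of liver with blood.

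Chaperones bind unfolded or newly made proteins and help them to fold, and most of the cytosolic ones are induced by heat shock factors when proteins are damaged. HSPA8 is the constitutive member of the HSP70 family in the cytosol, and J-domain proteins such as DNAJA1 and DNAJB1 deliver substrates to it and stimulate its ATPase, while HSPH1 and BAG3 act as nucleotide exchange factors that let the substrate go. CIRBP is known for the opposite regulation, being raised by mild cold and lowered by heat.

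Levels are given as CPM, the counts scaled by edgeR to the TMM-adjusted size of each library. Libraries were made from transcript 3′ ends, so a count stands for a read near the end of a transcript. Library totals ran from 2874092 to 3823973 counts in blood, from 2886686 to 5680221 in liver CD8αhigh and from 2003499 to 3776823 in lrNK cells. In bulk RNA, fewer cells that express a gene and less of its RNA per cell cannot be told apart. All 8 NK cell markers checked were counted in each population, and the 5 hepatocyte markers summed to at most 8.14 CPM in any library, with *APOA1*, *TTR* and *SERPINA1* at 0 throughout. Myeloid markers summed to at most 25.6 CPM, and erythroid markers reached 320.5 CPM in blood. The 5 B cell markers, of which *CD79A* was at 0 throughout, summed to 10.9 to 109 CPM in blood, 0 to 44.2 CPM in liver CD8αhigh and 214 to 685 CPM in lrNK libraries. The 6 T cell markers went the other way, with *CD4* and *CD5* at 0 throughout and sums of 637 to 1203, 714 to 1076 and 110 to 593 CPM (in this order). The part of these other markers in the results below was not tested. Differences are log2 fold changes from edgeR's quasi-likelihood test on all 15 libraries, with p-values adjusted by Benjamini-Hochberg over the 10939 genes, and a gene is said to have risen or fallen where the adjusted p was under 0.05.

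In liver CD8αhigh NK cells, *HSPA8* rose and *CIRBP* fell against blood, and these were 2 of the 10 genes called, where 0.064% of all genes tested were called (0.0457% higher and 0.0183% lower). In lrNK cells, *HSPA8*, *DNAJA1*, *HSPA5* and *HSPD1* rose and *CIRBP* and *BAG3* fell, 6 of the 10 genes, where 18.2% of all genes tested were called (8.62% higher and 9.6% lower). Between the liver populations, *BAG3* was the gene called of the 10, lower in lrNK cells, where 14.6% of all genes tested were called (7.68% lower). Because the list was chosen with these comparisons known, the shares stand beside each other as a description. Both comparisons with blood use the same 5 blood libraries. The median log2 fold change of the 10 genes was 0.76 in liver CD8αhigh cells against blood (-0.02 over all genes tested), 0.83 in lrNK cells against blood (0.01 over all genes) and -0.13 between the liver populations (0.02 over all genes).

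**Figure D1:**
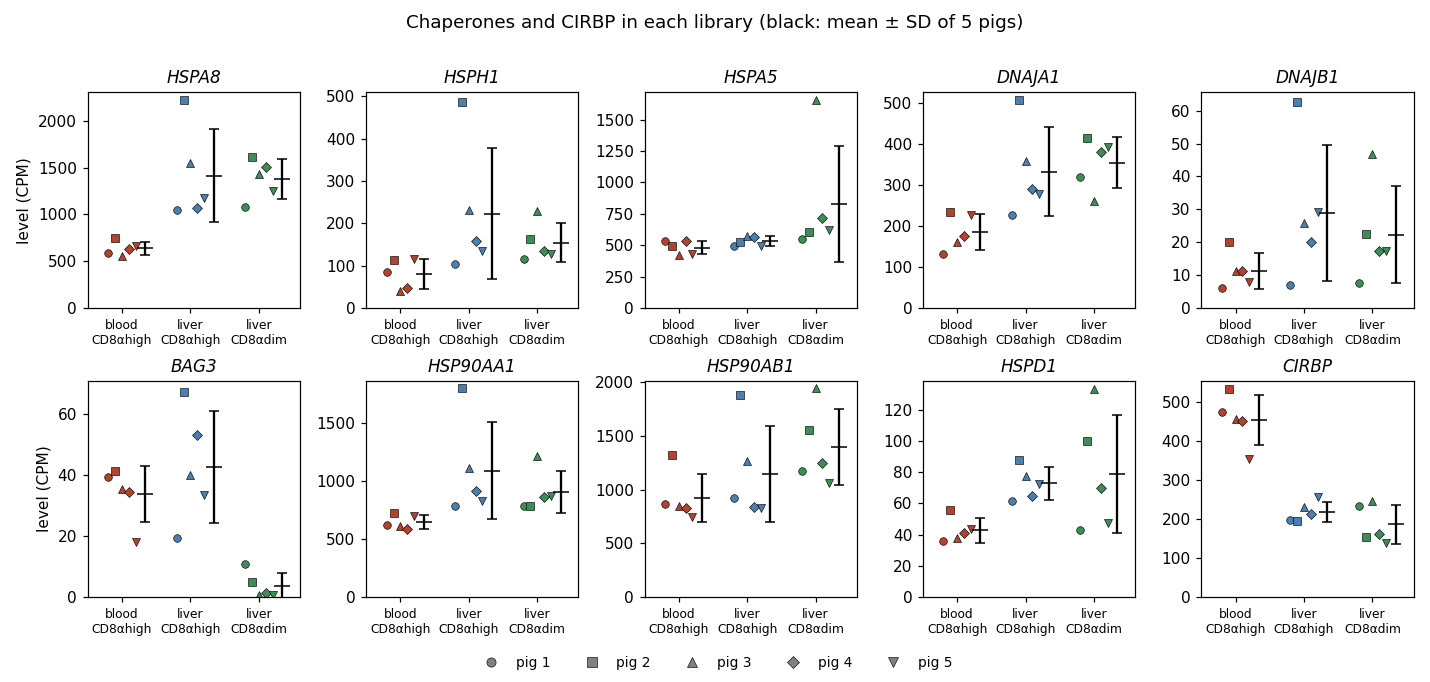
Level of each of the 10 genes in CPM (vertical axes, from 0) in the 15 libraries, by population (horizontal axis) and pig (symbol); black bars are the mean ± SD of 5 pigs. *HSPA8* was above all blood libraries and *CIRBP* below them in all 10 liver libraries, and *BAG3* was at 10.8 CPM or less in all 5 lrNK libraries.

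*HSPA8* (gene 100511890, chromosome 9 from 49982278 to 49986760 of Sscrofa11.1) had 585, 746, 558, 631 and 662 CPM in blood cNK cells of pigs 1 to 5. Liver CD8αhigh cells of the same pigs had 1045, 2222, 1549.9, 1072 and 1178 CPM, and lrNK cells 1084, 1615, 1437, 1512 and 1254 CPM. Every liver library of either kind was thus above every blood library. The means were 636 ± 73.3, 1413 ± 495 and 1380.2 ± 212 CPM (SD, n = 5), in this order. The level was 2.22-fold higher in liver CD8αhigh cells than in blood (log2 fold change 1.15, with a standard error, SE, of 0.19, adjusted p = 0.0103, edgeR) and 2.17-fold higher in lrNK cells (1.12, SE 0.19, adjusted p = 2.07e-04). The liver populations did not differ beyond their spread, with a log2 difference of -0.03 and a 95% interval of -0.42 to 0.36. The rise in liver CD8αhigh cells held in direction in all 20 fits with a pig or a library left out, and its call in 12. Without the 3 libraries of pig 1, 2, 3, 4 or 5 the call was lost (adjusted p = 0.0644, 0.0682, 0.105, 0.0733 and 0.0717, edgeR). It was also lost without the blood library of pig 1, 3 or 4 (0.0575, 0.0588 and 0.0502, edgeR). DESeq2, the tool of the study's methods, gave adjusted p = 4.13e-06 on all libraries.

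*CIRBP* (gene 100522851, chromosome 2 from 77185295 to 77194373), whose protein binds RNA and is induced by mild cold, moved in the direction opposite to *HSPA8* against blood. Its levels were 476, 534, 458, 452 and 354 CPM in blood of pigs 1 to 5, 197, 195, 232, 213 and 256 CPM in liver CD8αhigh cells and 234, 155, 247, 162 and 138 CPM in lrNK cells. The lowest blood library, that of pig 5, was above the highest of the 10 liver libraries, and the liver populations overlapped. Group means were 455 ± 64.9, 218 ± 25.5 and 187 ± 49.9 CPM (SD, n = 5). *CIRBP* was 2.08-fold lower in liver CD8αhigh cells than in blood (log2 fold change -1.06, SE 0.17, adjusted p = 0.0103, edgeR) and 2.43-fold lower in lrNK cells (-1.28, SE 0.18, adjusted p = 1.67e-05). Between the liver populations the log2 difference was -0.23 (95% interval -0.59 to 0.14). The call in liver CD8αhigh cells was kept in 13 of 20 fits with a pig or a library left out. It was lost without pig 1, 2 or 4 (adjusted p = 0.116, 0.256 and 0.165, edgeR), without the blood library of pig 1, 2 or 3 (0.0575, 0.0569 and 0.0552) and without the liver CD8αhigh library of pig 2 (0.0562). DESeq2 on all libraries gave adjusted p = 5.25e-06. *CIRBP* shares 3954 bases with *C2H19orf24*, a gene with at most 105 counts in a library, and the strand used in counting is not given in the sources used here.

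*BAG3* (gene 100156989, chromosome 14 from 129510240 to 129533998) joins HSP70 to small heat shock proteins and to selective autophagy, and of the 10 genes it was the one called between the liver populations. Its levels were 39.3, 41.1, 35.3, 34.3 and 18.1 CPM in blood of pigs 1 to 5 and 19.3, 67.2, 39.9, 53.1 and 33.4 CPM in liver CD8αhigh cells. In lrNK cells they were 10.8, 4.80, 0.487, 1.40 and 0.522 CPM, from 1 to 26 counts per library against 53 to 150 in blood and 56 to 308 in liver CD8αhigh cells. Blood and liver CD8αhigh cells overlapped, and the lrNK library with most *BAG3*, that of pig 1, was below all 10 others. Against blood the level in lrNK cells was 9.71-fold lower (log2 fold change -3.28, SE 0.57, adjusted p = 2.65e-04, edgeR). Against liver CD8αhigh cells it was 12.3-fold lower (-3.62, SE 0.57, adjusted p = 1.23e-04), and this is also the test of whether the liver-to-blood difference was unlike in the liver populations. Liver CD8αhigh cells against blood gave 0.34 with a 95% interval of -0.66 to 1.34 and 4 of 5 pigs higher, pig 1 being the exception, and ran from 0.12 to 0.60 when a pig or library was left out. Both calls stayed when any pig or any library was left out. The lrNK library of pig 1, which held the highest *BAG3* count, made the differences smaller: without it they were -4.30 against blood and -4.66 against liver CD8αhigh cells, and without all 3 libraries of pig 1 -4.24 and -4.84.

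Of 5 other BAG genes, 4 were tested and 1 of them, *BAG5*, fell in lrNK cells against blood, where 9.6% of all genes tested fell. It went from 52.1 ± 16.3 to 24 ± 6.77 CPM (mean ± SD of 5 pigs; log2 fold change -1.12, adjusted p = 0.00552, edgeR). *BAG5* in liver CD8αhigh cells had 40.6 ± 11.6 CPM, and its difference between the liver populations was not called, at -0.76 (adjusted p = 0.0660). The small heat shock proteins, partners of BAG3, were nearly all under the filter, with 1 of 9 tested: *HSPB1* had 8.94 to 22.0 CPM in blood, 10.9 to 25.1 in liver CD8αhigh and 2.44 to 12 in lrNK cells, and its difference between the liver populations, -1.30 (adjusted p = 0.0650), passed in a fit with the pig as a block, called pig-blocked from here on (-1.41, adjusted p = 0.0256).

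**Figure D2:**
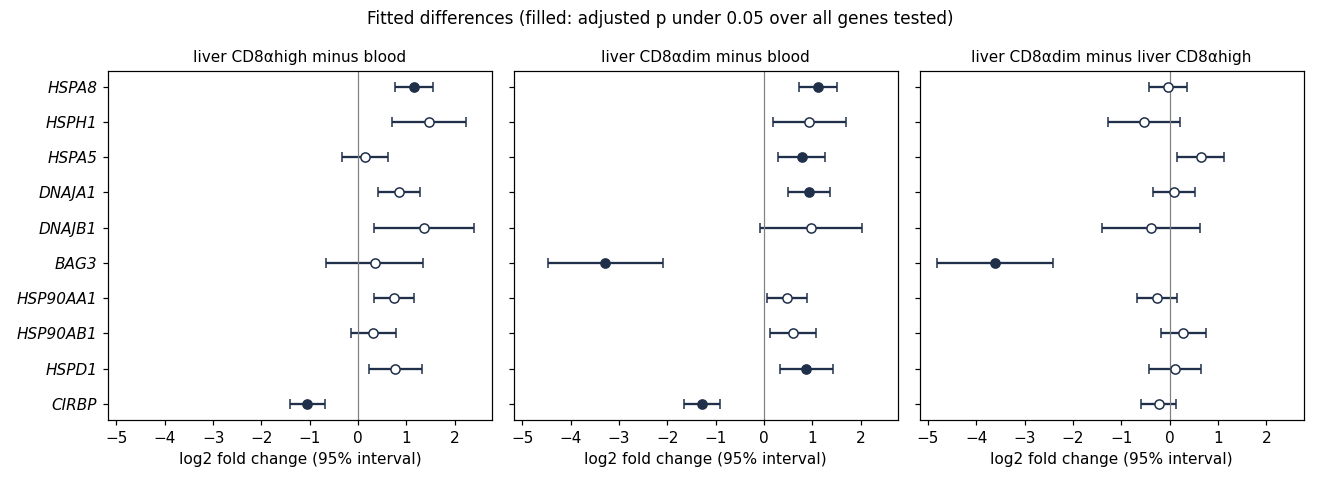
Log2 fold change (horizontal axes) of the 10 genes with its 95% interval from edgeR's fit of 15 libraries, for the 3 comparisons; filled points passed an adjusted p of 0.05. The interval of *BAG3* lay below 0 in both comparisons of lrNK cells, and those of *HSPA8* and *CIRBP* lay on opposite sides of 0 in both comparisons with blood.

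Of the J-domain genes, *DNAJA1* rose in lrNK cells and *DNAJB1* was not called. *DNAJA1* (gene 100512008, chromosome 10 from 33432529 to 33445556) had 132, 234, 161, 176 and 228 CPM in blood of pigs 1 to 5, 228, 508, 359.9, 291 and 277 in liver CD8αhigh cells and 321, 414, 262, 382 and 391.8 in lrNK cells. All lrNK libraries were above all blood libraries, while the liver CD8αhigh library of pig 1 fell within the blood range. In lrNK cells against blood the level was 1.90-fold higher (log2 fold change 0.93, SE 0.21, adjusted p = 0.00314, edgeR). The fitted difference of liver CD8αhigh cells was nearly as large, 0.84 with a 95% interval of 0.40 to 1.28 and all 5 pigs higher, but its adjusted p was 0.332. *DNAJB1* (gene 396741, chromosome 2 from 64761672 to 64764482), a co-chaperone that is strongly heat-inducible, gave 22 to 73 counts in each blood library, 20 to 238 in each liver CD8αhigh library and 18 to 96 in each lrNK library. Its level was higher than in blood in all 5 pigs for both liver populations, at 5.96 to 20.0, 6.91 to 62.8 and 7.48 to 46.8 CPM in the same order, so the groups overlapped. The log2 fold changes of 1.36 (95% interval 0.32 to 2.41) and 0.97 (-0.07 to 2.02) did not pass (adjusted p = 0.758 and 0.207, edgeR). Much of each came from 1 library: the first was 0.87 without the liver CD8αhigh library of pig 2, and the second 0.54 without the lrNK library of pig 3.

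*HSPH1* (gene 100048931, chromosome 11 from 7733874 to 7759528), the HSP110 chaperone, had the largest fitted difference of the 10 genes between liver CD8αhigh cells and blood, and also one of the widest spreads. It had 84.8, 113, 39.9, 48.1 and 116 CPM in blood of pigs 1 to 5, 104, 487, 232, 157 and 135 in liver CD8αhigh cells and 115, 163, 229, 134 and 127 in lrNK cells. All 5 pigs were higher in liver for both populations, yet the within-pig log2 differences ran from 0.21 to 2.52 in liver CD8αhigh and from 0.13 to 2.51 in lrNK cells. The liver CD8αhigh library of pig 2 stood above the other 4, and the groups overlapped. The log2 fold change was 1.47 (SE 0.37, adjusted p = 0.326, edgeR) in liver CD8αhigh and 0.93 (SE 0.36, adjusted p = 0.0821) in lrNK cells. DESeq2, the tool named in the study's methods, gave adjusted p = 0.0281 and 0.0499, and edgeR without the filter on low counts gave 0.00687 and 0.0212. The lrNK difference also passed in the fit of blood and lrNK libraries alone (adjusted p = 0.0437), so both calls depend on the processing. The pig-blocked fit called *HSPH1* in lrNK cells (0.96, adjusted p = 0.0401) and not in liver CD8αhigh cells (1.33, adjusted p = 0.263). Without the liver CD8αhigh library of pig 2, the difference to blood in that population was 0.97. The lrNK difference was called without that library (0.93, adjusted p = 0.0312), which enters it through the shared estimate of spread, and without pig 2 (1.07, adjusted p = 0.0405). Without pig 3 it was 0.57 (adjusted p = 0.345).

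The cytosolic HSP90 genes, whose proteins fold kinases and steroid receptors, were not called in either liver population. *HSP90AA1* (gene 397028, on a sequence not placed on a chromosome), the inducible form, had 584 to 724 CPM in blood, 781 to 1798 in liver CD8αhigh and 781 to 1215 in lrNK cells. Its blood libraries were thus all below the liver libraries of both kinds, but the log2 fold changes of 0.74 (95% interval 0.33 to 1.16) and 0.48 (0.06 to 0.89) did not pass (adjusted p = 0.446 and 0.105, edgeR). Without the liver CD8αhigh library of pig 2, the difference of that population was 0.49. Without pig 2 or that library, the lrNK difference was called (0.56 and 0.47, adjusted p = 0.0410 and 0.0370). Among the 9 chaperone genes, *HSPA8*, *HSP90AA1* and *HSPD1* were apart from blood in this way in liver CD8αhigh cells, where 1.11% of genes tested were apart and higher, and *HSPA8*, *HSPA5*, *HSP90AA1* and *DNAJA1* in lrNK cells, where 6.18% were. On the lower side, *CIRBP* was apart from blood in liver CD8αhigh cells (0.905% of genes tested), *CIRBP* and *BAG3* in lrNK cells (7.33%), and *BAG3* in lrNK cells from liver CD8αhigh cells (6.67%).

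*HSP90AB1* (gene 396742, chromosome 7 from 39237299 to 39250479), the constitutive form, had 864, 1319, 849, 827 and 749 CPM in blood of pigs 1 to 5, 919, 1880.1, 1271, 836 and 833 in liver CD8αhigh and 1174, 1552, 1947, 1245 and 1065 in lrNK cells. It was higher than in blood in all 5 pigs in both liver populations, although the blood library of pig 2 lay within both liver ranges. The log2 fold change of lrNK cells against blood was 0.60 (SE 0.23, adjusted p = 0.0736, edgeR), and the pig-blocked fit called it (0.60, adjusted p = 0.00815). It was also called by DESeq2 (adjusted p = 0.0446) and, in edgeR, without pig 2, its blood library or its liver CD8αhigh library (adjusted p = 0.0226, 0.0281 and 0.0376). For liver CD8αhigh cells it was 0.32 (95% interval -0.16 to 0.79), and 0.07 without the library of pig 2. *HSP90AB1* shares 237 bases with *SLC35B2*, a transporter gene of the Golgi whose count was between 0.307 and 0.476 of that of *HSP90AB1* in all 15 libraries (median 0.396). *SLC35B2* had 411, 545, 402, 366 and 296 CPM in blood of pigs 1 to 5, 342, 740.4, 482, 328 and 373 in liver CD8αhigh and 360.5, 647, 664, 519.8 and 421 in lrNK cells. As for *HSP90AB1*, pig 2 was highest in blood and in liver CD8αhigh cells and pig 3 in lrNK cells, while the order of the lower pigs was not the same in the liver populations. Reads of the shared stretch cannot be assigned without the strand, and reads of HSP90 and HSP70 genes may also be shared with close copies, since the treatment of reads with several alignments is not given in the sources used here.

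**Figure D3:**
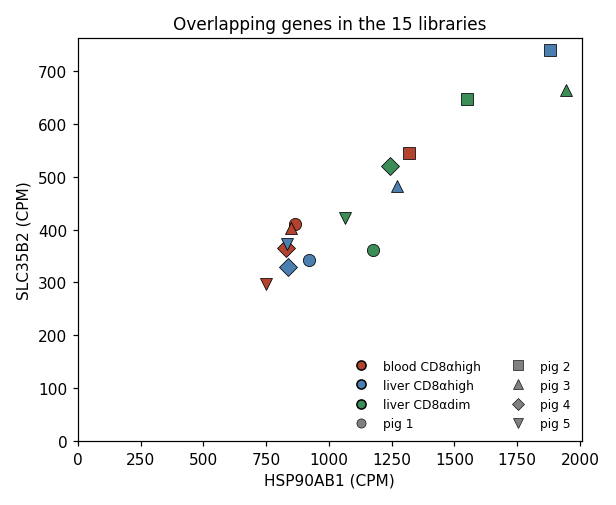
Level of *SLC35B2* (vertical axis, CPM) against that of the overlapping *HSP90AB1* (horizontal axis, CPM) in the 15 libraries, by population (colour) and pig (symbol). The libraries lie along a band, with the ratio of counts between 0.307 and 0.476.

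*HSPA5* (gene 407060, chromosome 1 from 265930044 to 265934959), the HSP70 chaperone of the endoplasmic reticulum, rose in lrNK cells, while its levels in liver CD8αhigh cells were close to those in blood. It had 535, 489.8, 420.3, 534 and 428 CPM in blood of pigs 1 to 5, 495, 523, 576, 567 and 492 in liver CD8αhigh and 547, 606, 1653, 714 and 619.5 in lrNK cells. The lrNK libraries were all above the blood libraries, but 4 of them by little, and that of pig 3 was apart from the rest. The log2 fold change in lrNK cells against blood was 0.78 (SE 0.23, adjusted p = 0.0217, edgeR). Without pig 3 it was 0.32 (adjusted p = 0.140), without the lrNK library of pig 3 alone 0.39 (adjusted p = 0.0369), and without the blood library of pig 3 or 5 0.73 and 0.74 (adjusted p = 0.0562 and 0.0538). The fit of blood and lrNK libraries alone did not call it either (0.78, adjusted p = 0.0593). Liver CD8αhigh cells differed from blood by 0.14 (95% interval -0.34 to 0.62). Between the liver populations *HSPA5* was higher on the lrNK side in every pig, with a log2 difference of 0.64 (adjusted p = 0.0714) that DESeq2 called (adjusted p = 0.0422), as did edgeR without the lrNK library of pig 1 or 2 (adjusted p = 0.0334 and 0.0466). Without the lrNK library of pig 3 it was 0.23 (adjusted p = 0.272), and without all libraries of pig 3 0.26 (adjusted p = 0.301).

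*HSPD1* (gene 492279, chromosome 15 from 101360355 to 101373498), the chaperonin of the mitochondrial matrix, had 35.8, 55.6, 37.7, 40.8 and 43.7 CPM in blood of pigs 1 to 5, 61.5, 87.8, 77.8, 64.8 and 72.6 in liver CD8αhigh and 43.2, 99.8, 133, 69.9 and 47.5 in lrNK cells. Liver CD8αhigh cells were above blood in every library, while the lrNK libraries of pigs 1 and 5 were within the blood range. The log2 fold change was 0.88 in lrNK cells (SE 0.26, adjusted p = 0.0227, edgeR) and 0.77 in liver CD8αhigh cells (SE 0.26, adjusted p = 0.684). The lrNK call was lost without pig 2, 3 or 4, with the lrNK library of pig 2 or 3 left out, and without the blood library of pig 1 or 3. It was 0.56 (adjusted p = 0.151) without pig 3, and the other adjusted p-values lay between 0.0547 and 0.0681, with 0.0584 in the fit of blood and lrNK libraries alone. *HSPE1*, the co-chaperonin that caps HSPD1, lies 520 bases away and was not called. It had 85.6, 174, 35.1, 236 and 164 CPM in lrNK cells of pigs 1 to 5, lowest in pig 3 where *HSPD1* was highest, and 99.99 to 168 CPM in blood (log2 fold change 0.02, 95% interval -0.66 to 0.71). *HSPE1* was singled out after its values were seen.

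In each population a single library was highest for most of the 9 chaperones and co-chaperones. How often the same library was highest over all genes tested was not counted, so nothing particular to chaperones is read from it. In liver CD8αhigh cells the library of pig 2 had the highest level of 8 of the 9 chaperones and co-chaperones (all but *HSPA5*), and that of pig 1 had the lowest level of 7. In blood, pig 2 was again highest for 7 of the 9. In lrNK cells pig 3 was highest for 6 of the 9, pig 2 for *HSPA8* and *DNAJA1*, and pig 1 was lowest for 6. Summed over the 9 genes, blood libraries held 2726 to 3742 CPM, liver CD8αhigh libraries 3660 to 7636 CPM and lrNK libraries 4084 to 6923 CPM, with means of 3042 ± 400.3, 4878 ± 1661 and 5119 ± 1108 CPM (SD, n = 5). Only the blood library of pig 2 reached the lowest liver sum, that of the liver CD8αhigh library of pig 1. The coefficient of variation over the 5 pigs in liver CD8αhigh cells was largest for *DNAJB1* (71.5%) and *HSPH1* (69.4%) and smallest for *HSPA5* (7.40%) and *CIRBP* (11.7%). The lrNK library of pig 3, high for most chaperones, was the lowest of the 5 for *DNAJA1* and highest for *CIRBP*. Its *BAG3* level was also the lowest but nearly that of pig 5, at counts too few to order the libraries.

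**Figure D4:**
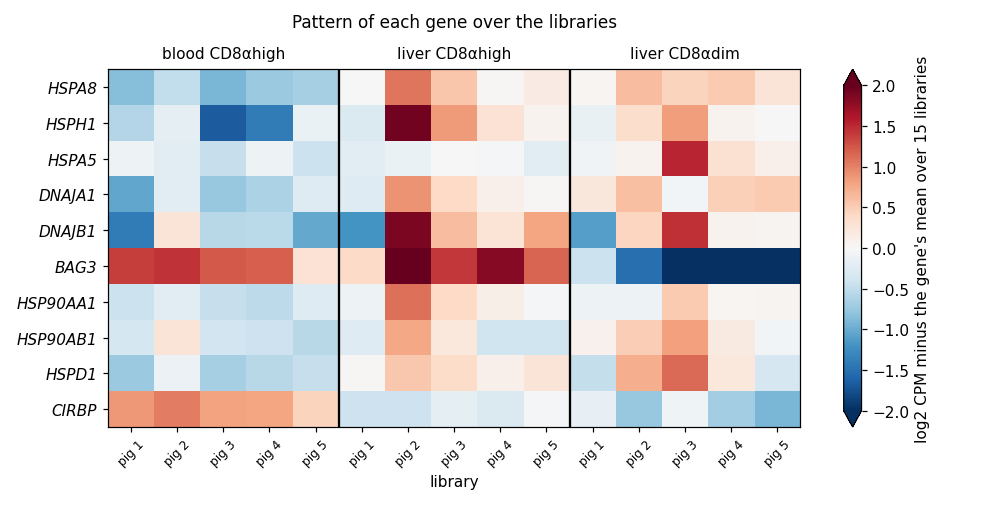
Log2 CPM of each gene (rows) minus its own mean over the 15 libraries, for the libraries of 5 pigs in each population (columns); colours saturate at -2 and 2. Most chaperones are darkest red in liver CD8αhigh cells of pig 2 and in lrNK cells of pig 3, *CIRBP* is red in the 5 blood libraries, and *BAG3* is dark blue in lrNK cells of pigs 3 to 5.

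Patterns over the libraries were compared by the mean absolute difference of log2 CPM (prior count 2) after each gene's own mean was taken off. Nearest to *HSPH1* outside the list were *C1H15orf62* (0.346 log2 units per library), *HSPA4* (0.427) and *UMPS* (0.431), against a median of 0.806 over all genes. Within the list, *HSP90AA1* was nearest to it (0.336) and *BAG3* farthest (1.81). *C1H15orf62*, counted at most 172 times in a library, overlaps *DNAJC17* by 5034 bases (at most 31 counts) and *GCHFR* by 324 bases (at most 192 counts), so its counts are uncertain. Nearest to *CIRBP* were *SRSF5*, a splicing factor (0.211), *CYTB*, the mitochondrial gene of cytochrome b (0.262), and *TMCO3* (0.304), against a median of 0.717 over all genes. *SRSF5* had 563 ± 86.9 CPM in blood, 347 ± 56.0 in liver CD8αhigh and 260.3 ± 80.6 in lrNK cells (mean ± SD, n = 5). These genes were chosen for their likeness to *CIRBP* in the same libraries, so their differences to blood are given as a description, with no test: they were -0.70, -0.76 and -0.92 on the log2 scale in liver CD8αhigh cells and -1.11, -1.05 and -1.11 in lrNK cells, in this order.

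The rest of the chaperone network is given by counts beside those over all genes. Of 152 other gene symbols in 12 lists of chaperones, co-chaperones and stress genes, 143 had a row and 122 were tested. In liver CD8αhigh cells against blood, 0 of the 122 passed in edgeR (0.064% of all genes) and 0 in DESeq2, with 15 at an unadjusted p under 0.05 in edgeR (5.02% of all genes) and a median log2 fold change of 0.14. In lrNK cells against blood 12 rose and 3 fell (median 0.16), and DESeq2 called 20 (18.2% of all genes in DESeq2). Between the liver populations 3 were higher and 3 lower in lrNK cells (median 0.08), which became 7 and 5 in the pig-blocked fit (15.7% of all genes called), and DESeq2 called 12 (14.8% of all genes). Over all genes tested, 8.62% rose and 9.6% fell in lrNK cells against blood, and 14.6% differed between the liver populations. Nothing particular to the network is read from these counts.

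Among 14 other HSP70 and HSP110 gene symbols, 12 had a row and 10 were tested. Of these, 3 rose in lrNK cells against blood, *HSPA1L*, *HSPA2* and *HSPA4*, where 8.62% of all genes tested rose. *HSPA2* had 2.72 ± 1.81 CPM in blood against 40.8 ± 15.6 CPM in lrNK cells (log2 fold change 3.91, adjusted p = 0.00100, edgeR). It was at 35.2, 0.791, 8.92, 3.79 and 1.67 CPM in liver CD8αhigh cells of pigs 1 to 5, with pig 1 near the lrNK range, and the pig-blocked fit called it higher in lrNK than in liver CD8αhigh cells (2.72, adjusted p = 0.00359; 0.0517 without the block). *HSPA4*, a relative of HSPH1 and near it in pattern, went from 120.5 ± 21.4 to 178 ± 23.5 CPM (0.57, adjusted p = 0.0310). *HSPA1L* gave 0 to 6 counts in each blood library and 14 to 43 in each lrNK library (adjusted p = 0.00608, edgeR). It was not called between the liver populations. In liver CD8αhigh cells against blood the largest log2 fold change of this list was 3.20, and no gene of it was called. *HSPA1L* overlaps *HSP70.2* and *LOC100624113*, the latter counted up to 1363 times in a library and not in the list, so its counts are uncertain.

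Of 46 other J-domain gene symbols 40 had a row and 34 were tested. In lrNK cells against blood 4 rose (*DNAJB11*, *DNAJC1*, *DNAJC7* and *DNAJC27*) and 2 fell, where 18.2% of all genes tested were called. *DNAJB13* fell from 201 ± 38.9 CPM in blood to 50.8 ± 13.7 CPM in lrNK cells (log2 fold change -1.98, adjusted p = 2.63e-07, edgeR), and with 129 ± 17.0 CPM in liver CD8αhigh cells it was lower in lrNK cells than there too (-1.34, adjusted p = 4.94e-05). It overlaps *UCP2*, counted at most 410 times in a library, by 59 bases, and reads there cannot be assigned without the strand. *DNAJC30*, a mitochondrial protein, fell from 9.39 ± 1.63 to 1.17 ± 1.27 CPM (-2.91, adjusted p = 0.00946). *DNAJC27* went the other way, from 6.55 ± 4.17 CPM in blood to 24.5 ± 11.6 CPM in lrNK cells (1.89, adjusted p = 0.0135), and was also above liver CD8αhigh cells (2.12, adjusted p = 0.00739). Of the 34, *DNAJB13* and *DNAJC27* were called between the liver populations (14.6% of all genes tested were), and DESeq2 called *DNAJC10* besides, while the differences of *DNAJA1* and *DNAJB1* were 0.09 (95% interval -0.34 to 0.52) and -0.39 (-1.41 to 0.63).

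Of 16 other chaperones of the endoplasmic reticulum, all tested, 2 rose in lrNK cells against blood, *CALR* and *DNAJB11*, where 8.62% of all genes tested rose, and the median was 0.38. *CALR*, the calcium-binding chaperone calreticulin, had 358, 353, 344, 437 and 326 CPM in blood of pigs 1 to 5, 344, 441, 376, 440.2 and 342 in liver CD8αhigh and 473, 506, 995, 624 and 502 in lrNK cells. Its lrNK libraries were above all others, pig 3 being highest as for *HSPA5* (log2 fold change 0.77 against blood, adjusted p = 0.00496, and 0.67 against liver CD8αhigh cells, adjusted p = 0.0153, edgeR). *DNAJB11*, a partner of HSPA5, had 23.6 ± 11.5 CPM in blood against 45.6 ± 11.7 CPM in lrNK cells and was higher in 4 of 5 pigs (0.96, adjusted p = 0.0352, edgeR). *DNAJB11* shares 467 bases with *TBCCD1*, counted at most 141 times in a library, and reads there cannot be assigned without the strand. *HSP90B1*, the HSP90 of this compartment, had 0.32 (adjusted p = 0.153).

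Of 12 genes of the unfolded protein response, all tested, 3 rose in lrNK cells against blood, *TRIB3*, *EDEM1* and *HERPUD1*, where 8.62% of all genes tested rose. *EDEM1*, which helps to clear misfolded glycoproteins, went from 111 ± 23.2 to 307 ± 87.1 CPM (1.47, adjusted p = 6.77e-05, edgeR), and stood at 117 ± 32.4 CPM in liver CD8αhigh cells (1.39 between the liver populations, adjusted p = 1.44e-04). Its lowest lrNK level was that of pig 3, 166 CPM. *HERPUD1*, a part of the same degradation pathway, went from 128 ± 21.9 to 209 ± 19.5 CPM (0.70, adjusted p = 0.0114). *TRIB3*, a pseudokinase of the stress response, gave 0 to 1 counts in each blood library and 7 to 25 in each lrNK library (adjusted p = 0.00354, edgeR). *TRIB3* was not called between the liver populations. In liver CD8αhigh cells against blood the largest log2 fold change of this list was 3.65, and no gene of it was called.

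Several lists held no gene that passed in edgeR in either comparison with blood, where 0.064% and 18.2% of all genes tested were called. They were the 19 other HSP90 genes and HSP90 co-chaperones (19 tested), the 11 mitochondrial chaperones and proteases (11 tested), the 14 subunits of the chaperonin TRiC and prefoldin (14 tested), 7 ubiquitin and other heat-inducible genes (5 tested) and the small heat shock proteins, besides the cold-inducible genes described below. Their medians in lrNK cells against blood were 0.06, 0.17, 0.24, 0.03 and -0.93, the last for *HSPB1* alone. At an unadjusted p under 0.05 that comparison had 4, 3, 1, 0 and 0 of their genes (29.5% of all genes tested), of which DESeq2 called *CHORDC1*, an HSP90 co-chaperone, and *GRPEL1*, a mitochondrial co-chaperone. In liver CD8αhigh cells against blood the numbers at an unadjusted p under 0.05 were 5, 0, 2, 0 and 0 (5.02% of all genes), with 0 called by DESeq2. Between the liver populations 2 of the 19 HSP90 genes and co-chaperones were called, where 14.6% of all genes tested were, and DESeq2 called *AHSA2* besides. In that comparison DESeq2 also called *GRPEL2* of the mitochondrial list and *HSPB1*, where it called 14.8% of all genes. *FKBP5*, an immunophilin, and *PTGES3*, known as p23, were lower in lrNK cells, by 0.89 and 0.49 on the log2 scale (adjusted p = 0.0315 and 0.0474, edgeR), each in 4 of 5 pigs. Their lrNK levels of 103 ± 12.2 and 114 ± 10.4 CPM stood beside 191 ± 103 and 159.6 ± 21.6 CPM in liver CD8αhigh cells, and neither pair of groups was apart. Of the 19 genes, 1 other was apart and lower in lrNK cells, where 6.67% of all genes tested were.

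**Figure D5:**
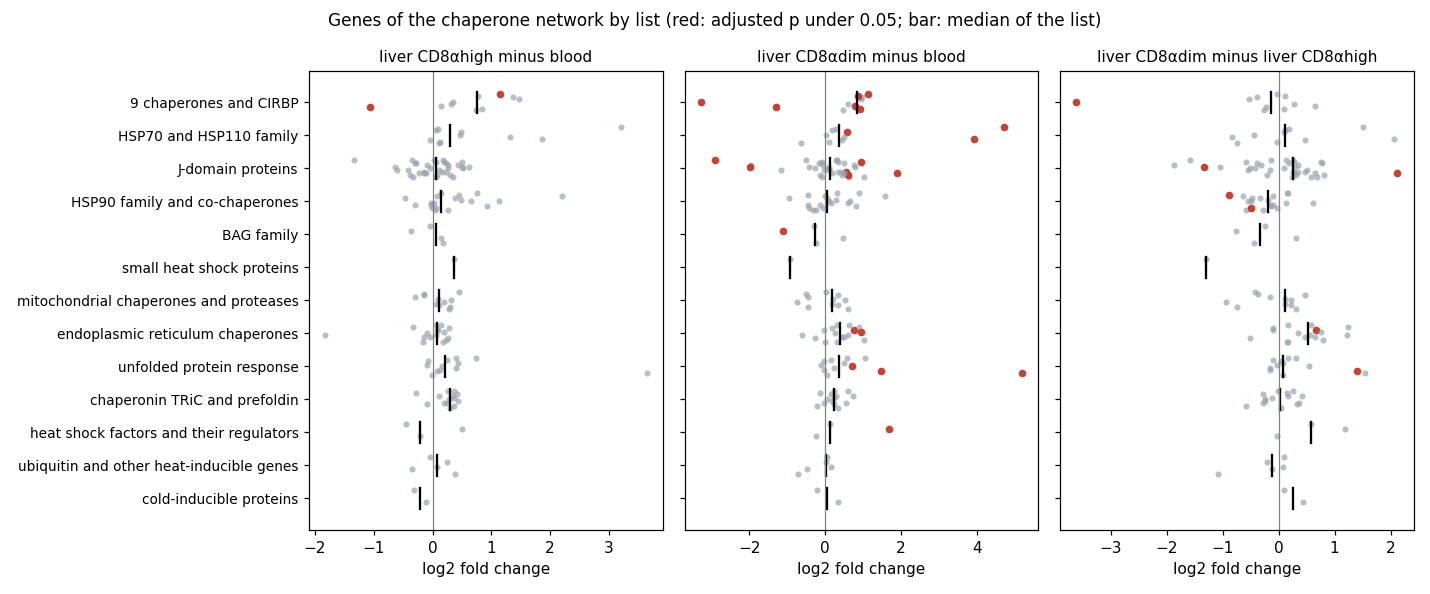
Log2 fold change (horizontal axes) of each tested gene in 13 lists (rows; the first is the 10 genes described) for the 3 comparisons; red points passed an adjusted p of 0.05, grey points did not, and black bars are medians. In liver CD8αhigh cells against blood the red points are *HSPA8* and *CIRBP*, and outside the first row there are 15 red genes in lrNK cells against blood.

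Among the regulators, 5 of 6 heat shock factors and related genes had a row and 3 were tested. *HSF1*, the main factor that induces chaperone genes on heat, had 34.4 ± 11.7 CPM in blood, 25.2 ± 5.46 in liver CD8αhigh and 37.7 ± 15.7 in lrNK cells (mean ± SD, n = 5), with log2 fold changes against blood of -0.45 (95% interval -1.07 to 0.16) and 0.12 (-0.50 to 0.74). *HSF2* had -0.21 and -0.24, neither past the test. *HSBP1*, which binds and restrains HSF1, rose in lrNK cells against blood, from 3.68 ± 1.66 to 12 ± 6.56 CPM (1.69, adjusted p = 0.0315, edgeR).

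The other cold-inducible genes listed, *RBM3* and *RTN3*, were not called in any comparison by edgeR or DESeq2, nor at an unadjusted p under 0.05. *RBM3*, the closest relative of CIRBP among cold-shock RNA-binding proteins, had 143, 230.0, 203, 353 and 171 CPM in blood of pigs 1 to 5, 175, 157, 182, 209.6 and 156 in liver CD8αhigh and 253, 177, 31.7, 299 and 177 in lrNK cells. The 3 populations overlapped, and the lrNK library of pig 3 was far below the rest. Its log2 fold changes against blood were -0.32 (95% interval -1.05 to 0.41) and -0.22 (-0.95 to 0.51). *RTN3*, whose translation RBM3 promotes, had -0.10 (-0.56 to 0.35) and 0.33 (-0.13 to 0.79). Whether *CIRBP* differed more than *RBM3* was not tested.

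Immediate early genes, which cells switch on within minutes of a stimulus or of handling, were measured beside the chaperones. The 19 genes listed summed to 1024 to 1185 CPM in blood, 1446 to 1719 CPM in liver CD8αhigh and 1028 to 1477 CPM in lrNK libraries. In liver CD8αhigh cells against blood, *EGR3* and *NR4A2*, both transcription factors, rose among 16 tested (0.064% of all genes tested were called), and in lrNK cells 5 rose and 4 fell (18.2% of all genes were called). *EGR3* went from 3.26 ± 3.16 CPM in blood to 36.9 ± 19.3 and 63.8 ± 27.8 CPM in the liver populations (log2 fold changes 3.54 and 4.33, adjusted p = 0.0103 and 1.63e-05, edgeR), and *EGR1* from 2.28 ± 2.61 to 24.7 ± 9.01 CPM in lrNK cells (3.44, adjusted p = 0.00382). *NR4A3*, a nuclear receptor, and *IER3* fell in lrNK cells against blood, *NR4A3* from 150.5 ± 64.0 to 4.14 ± 3.80 CPM (-5.27, adjusted p = 2.03e-07) and *IER3* from 8.93 ± 3.70 to 1.11 ± 1.43 CPM (-3.05, adjusted p = 0.0137). Of the 16, 1 was higher in lrNK cells than in liver CD8αhigh cells (*IER5*) and 4 were lower (*FOSL2*, *JUNB*, *IER2* and *NR4A3*), where 14.6% of all genes tested were called, and *NR4A3* differed by -5.83 (adjusted p = 6.82e-08, edgeR). The part of the immediate early response in the chaperone levels was not tested.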

How the data were processed

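RNA of 3 sorted NK cell populations from 5 pigs was sequenced with a 3′ mRNA kit. According to the study's methods, the authors trimmed the reads with QuasR and aligned them with Rhisat2 to Sscrofa11.1. The deposited values are counts per gene, whole numbers whose totals differ between libraries, and so were taken as not normalized. The counting tool is not given in the sources used here. All 15 columns matched a sample and 0 did not. Counts were tested with edgeR 4.0.16 in R 4.3.3 (TMM, default filter, quasi-likelihood test, Benjamini-Hochberg adjustment, all 15 libraries in a single fit, standard error from the F statistic), with 3 comparisons. The main fit has no term for the pig. Its p-values measure the spread between libraries within populations, estimated over all 3 populations, and not the spread of within-pig differences. Alternatives were DESeq2 1.42.0, its size factors, other filters, robust dispersion, the pig as a block, 2-population fits, a threshold of 0.01, and leaving out each pig or library. The script was tested on simulated counts. Gene coordinates come from a RefSeq table of Sscrofa11.1 without strand; all 10 genes matched. No sequences were used here.

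The pairing comes from the donor numbers in the labels and from the methods, by which blood and liver came from the same pigs; deviations from population means correlated at 0.107 on average within pigs and -0.0265 between pigs. The 10 genes, the lists and the tests were chosen with earlier results of these data known. Other genes were named by rule: from each list up to 4 genes with the largest change that passed, the 3 genes nearest in pattern to *HSPH1* and *CIRBP*, and markers. *HSPE1*, *SLC35B2*, *HSPB1*, *HSP90B1*, *HSF1*, *HSF2*, *RBM3*, *RTN3*, *NR4A2*, *IER5*, *FOSL2*, *JUNB*, *IER2*, *DNAJC1*, *DNAJC7*, *GCHFR*, *UCP2*, *TBCCD1*, *CHORDC1*, *AHSA2*, *DNAJC10*, *GRPEL1*, *GRPEL2* and *DNAJC17* are named outside the rule. No pair of libraries of a population looked like 1 library counted again (chi-square per degree of freedom 9.41 to 46.7 over 30 pairs). Plots were made in matplotlib 3.10.9 (Python 3.11.15).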

Additional observations from a re-analysis of the deposited data

Results flagged for a closer look

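Of 30 groups of 5 libraries (10 genes in 3 populations), 3 held a library that stood apart by Dixon's ratio at the 95% level, where chance gives about 1 in 20 groups. The lrNK library of pig 3 had 1653 CPM of *HSPA5* against 547 to 714 CPM in the other 4 lrNK libraries, and 1215 CPM of *HSP90AA1* against 781 to 869 CPM. The blood library of pig 2 had 1319 CPM of *HSP90AB1* against 749 to 864 CPM in the other 4 blood libraries. The liver-to-blood difference of *BAG3* was unlike in the liver populations, by -3.62 on the log2 scale (lrNK minus liver CD8αhigh, adjusted p = 1.23e-04, edgeR, lower in 5 of 5 pigs).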

How the results depend on the processing

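The number of the 10 genes called was most sensitive in liver CD8αhigh cells against blood. From 2 it went to 4 with DESeq2 (3 higher and 1 lower, *HSPH1* and *DNAJA1* in addition), to 3 without a filter on low counts (*HSPH1* in addition) and to 0 at an adjusted p under 0.01, and it ran from 0 to 2 when a pig or library was left out. Of all genes tested, 7 were called in that comparison, 24 with DESeq2, 18 without a filter, 16 in the fit of the 2 populations, 4 with robust dispersion and 0 at 0.01, and 0 to 12 when a pig or library was left out. In lrNK cells against blood the number was 6 in the main analysis, where 1993 of all 10939 genes tested were called. It was 8 with the pig as a block (2120 of 10939 genes called), with DESeq2 (2388 of 13130) or without a filter (2047 of 18169). In the fit of the 2 populations it was 5 (without *HSPA5* and *HSPD1*, with *HSPH1*), where 1551 of 10210 genes were called. When a pig or library was left out it was 4 to 9, with 1472 to 2301 of all genes called. At 0.01 the number of all genes called went from 1993 to 1199. Between the liver populations it was 1, where 1601 of all genes were called. It was 2 (*HSPA5* in addition) with DESeq2 (1945 of 13130 genes called) or without a filter (1702 of 18169). When a pig or library was left out it was 1 to 2, with 1051 to 1764 of all genes called. All genes called went from 1601 to 947 at 0.01 and to 1051 without pig 5. With the pig as a block, the calls of *HSPH1* and *HSP90AB1* in lrNK cells against blood were added, as given in the report, and no other call of the 10 genes changed.

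No called difference changed its direction. Uncalled differences between the liver populations that crossed 0 were *HSPA8* with the block (0.0038, from -0.03) and, when a pig or library was left out, *HSPA8* (-0.15 to 0.19), *HSP90AA1* (-0.40 to 0.035), *DNAJB1* (-0.88 to 0.10), *DNAJA1* (-0.021 to 0.29) and *HSPD1* (-0.16 to 0.26); the cause of the changes was not tested. All 30 mean levels stayed within 1 SD without TMM. Counts of 1 to 26 per lrNK library limit the precision for *BAG3*.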
